A study of Mus musculus with 7 samples.

Results

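The insulin-like growth factor (IGF) axis was followed in EMT6 mouse mammary tumors through 10 genes: the ligands Igf1 and Igf2, the receptors Igf1r and Igf2r, and the binding proteins Igfbp2, Igfbp3, Igfbp4, Igfbp5, Igfbp6 and Igfbp7. They were found by symbol among the 53465 genes of the count table, and all 10 were measured and passed the filter on low counts. The list was selected on the fold changes of EMT6-PTR over EMT6-P tumors in these same 7 libraries, in the sense that they were known when the genes were picked. Values of that comparison are therefore descriptions of the genes and are no evidence about the axis.

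IGF1 and IGF2 are small secreted growth factors. They act through the IGF type 1 receptor, a tyrosine kinase encoded by Igf1r that signals through insulin receptor substrates to phosphoinositide 3-kinase and AKT. The product of Igf2r, the cation-independent mannose 6-phosphate receptor, binds IGF2 and carries it to lysosomes for degradation. Binding proteins hold the ligands in the extracellular space, and proteases that cut the binding proteins release them. In mammary and tumor tissue IGF1 is known mainly as a product of stromal cells such as fibroblasts and macrophages, while growth hormone drives its synthesis in liver.

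EMT6, a mouse breast carcinoma line, was injected into mammary fat pads of female BALB/c mice of 6 to 8 weeks, with 500000 cells per mouse. The 3 EMT6-P (parental) tumors grew under IgG control antibody. The 3 EMT6-PTR tumors, which the sample labels call PDR, had acquired resistance to αPD-L1 and grew under that antibody. Antibody was given at 250 μg per mouse every 3 days from day 1 until the mice reached endpoint. The remaining library is 1 metastasis labeled as resistant, for which the labels give neither the organ nor the mouse. Each library holds RNA of whole tissue, so that fewer cells of a type and less RNA per cell cannot be told apart. The paper describes EMT6-PTR as a selected variant and does not state whether the sequenced tumors grew from it. The EMT6-PTR tumors may therefore not be independently derived. The labels do not state that each tumor came from a separate mouse, and the study describes its replicates as technical where it does not say otherwise. The p-values therefore measure only the spread between these samples, which may be technical.

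Total estimated counts ranged from 20430110 to 25213472 per library. Expression is given as CPM, estimated counts relative to the library total, on the upper-quartile scale, on which 3 counts, the limit that a count of 0 allows, correspond to between 0.12 and 0.17 CPM. Over 15645 tested genes, log2 CPM correlated at 0.976 to 0.985 (Pearson r) between EMT6-P tumors but at 0.872 to 0.931 between EMT6-PTR tumors, and EMT6-PTR replicate 3 stood farthest from the others. In EMT6-PTR replicate 2 a single gene, CT010467.1, took 13.8% of all counts, while it took 1.27% to 1.35% in parental tumors, and the upper-quartile factor of that library was 0.885 against 0.982 to 1.08 in the others. EMT6-PTR replicate 3 had 608.2 CPM summed over epithelial markers, against 2364.7 to 2713.2 in the other 5 tumors, and 21356.6 CPM over 9 fibroblast markers, against 5782.4 to 9459.2. Of the epithelial markers, Krt8, Krt18, Krt14 and Cdh1 were below every parental tumor there. Epcam (8.78 CPM) and Krt5 (1.13 CPM) were inside the parental range, and Cldn7 and Esrp1 were at most 0.117 CPM. EMT6-PTR replicate 1 had 4518.6 CPM over 8 skeletal muscle markers, against 4.12 to 677.4 in the other tumors. In the metastasis all 8 lung markers were above every tumor, with a sum of 9216.6 CPM against 9.15 to 38.9, and 7 of 8 endothelial markers were above every tumor as well. Adipocyte markers summed to 38.7 to 54.8 CPM in EMT6-PTR tumors and 19.1 to 32.7 CPM in EMT6-P tumors, with each resistant sum above each parental one, and to 55.8 CPM in the metastasis. Only 2 of these 8 markers, Fabp4 and Plin4, were themselves higher in each resistant tumor than in all parental ones. Pparg was lower in EMT6-PTR replicate 1, at 0.347 CPM against 1.03 to 1.21 in EMT6-P tumors. The defining markers Adipoq, Plin1 and Lep were at most 1.61 CPM in any library, and the liver markers Alb and Ttr were at 0 in every tumor.

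The first question was how much of each gene the tumors contained. Divided by the length of merged exons, the levels fell into an abundant set and a scarce set. In EMT6-P tumors Igfbp7 led with 415.7 CPM per kilobase, followed by Igfbp6 with 165.9, Igfbp3 with 98.4 and Igfbp4 with 84.2 (means, n = 3). The receptors were far lower, with 4.75 CPM per kilobase for Igf2r and 4.07 for Igf1r, and Igfbp5 (1.89), Igfbp2 (1.25), Igf1 (0.94) and Igf2 (0.207) closed the order. Igfbp7 and Igfbp6, Igfbp6 and Igfbp3, Igfbp4 and Igf2r, Igf1r and Igfbp5, and Igf1 and Igf2 had ranges that did not overlap, while the other neighbors in the order could not be separated. Igfbp7 encodes the most divergent of these proteins, which binds IGFs weakly and insulin as well and which is deposited in vessel walls and matrix. The EMT6 tumors thus held transcripts of 4 binding proteins above 10 CPM per kilobase and both ligands below that level, in EMT6-P and in EMT6-PTR tumors alike.

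In EMT6-PTR tumors the gap between Igfbp4 (98.3 CPM per kilobase) and Igf2r (6.56) was the only step of the order at which the ranges did not overlap. Igf1 stood at 4.88 CPM per kilobase there, beside the receptor Igf1r at 5.03. The metastasis had another order: Igfbp6 was first with 485.8 CPM per kilobase, Igfbp7 next with 371.7, and Igfbp5 (54.3) and Igfbp2 (21.1) passed both receptors (Igf2r 4.41, Igf1r 4.29).

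**Figure D1:**
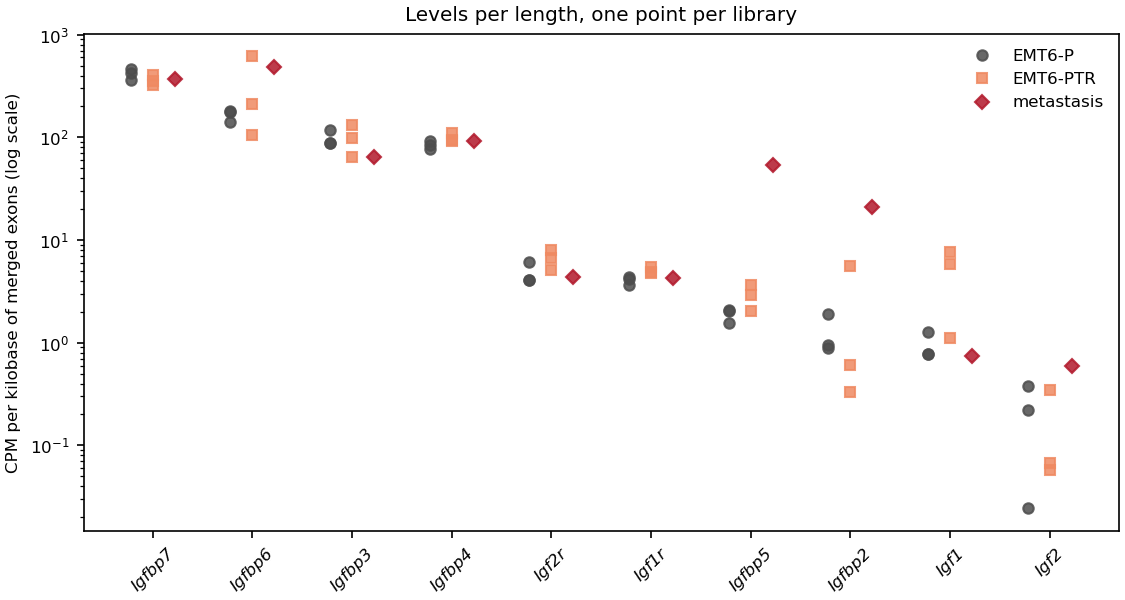
CPM per kilobase of merged exons (log axis) of the 10 genes, ordered by their EMT6-P mean, with 1 point per library for 3 EMT6-P tumors (circles), 3 EMT6-PTR tumors (squares) and the metastasis (diamond). Igfbp7, Igfbp6, Igfbp3 and Igfbp4 lie above 10 CPM per kilobase in every library, and Igfbp5 and Igfbp2 do so in the metastasis alone.

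The second question was whether the axis differed between resistant and parental tumors. In a quasi-likelihood fit with edgeR, adjusted over 15645 genes after Benjamini and Hochberg, 0 of 10 genes were called at an adjusted p of 0.05, as were 0% of all genes, and the members' adjusted p-values ran from 0.421 to 0.993. Fold changes on the log2 scale were positive for 8 genes and negative for Igf2 and Igfbp7, with a median of 0.39 against 0.03 over all genes tested, of which 52.3% were positive. At an unadjusted p under 0.05, 1 gene, Igf1, was higher in EMT6-PTR tumors, where the background was 5.84%, and 1786 genes of either direction (11.4%) passed that limit. Igf1 was also the 1 gene at least 2-fold higher (6.27% of all genes), and 0 genes were at least 2-fold lower (1.29%). Igf1r was the 1 gene with all EMT6-PTR tumors above all EMT6-P tumors (9.52% of all genes), and 0 had them all below (11.8%). These shares come from the contrast that was known when the list was chosen, so that nothing is read from them.

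Among the ligands, Igf1 had 7.66, 7.76 and 12.5 CPM in EMT6-P replicates 1 to 3 and 10.9, 58.3 and 75.6 CPM in EMT6-PTR replicates 1 to 3. EMT6-PTR replicates 2 and 3 were several times above every parental tumor, whereas replicate 1 lay inside the parental range, so the groups overlapped. The means were 9.31 ± 2.78 and 48.3 ± 33.5 CPM (SD, n = 3 each), a 5.19-fold ratio. In edgeR the log2 fold change was 2.37 (SE 0.67, unadjusted p = 0.0109, adjusted p = 0.421), and it ran from 1.89 to 2.84 when single tumors were dropped. DESeq2 gave a log2 fold change of 2.40 with an adjusted p of 0.0165 and so called Igf1. It called 1.01% of the genes it adjusted as higher in EMT6-PTR tumors.

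The tumors with high Igf1 also had the highest fibroblast marker sums: 9459.2 CPM in EMT6-PTR replicate 2 and 21356.6 in replicate 3, against 5782.4 to 7740.3 in EMT6-P tumors and 6822.6 in EMT6-PTR replicate 1. In replicate 3, 7 of 9 fibroblast markers were above every parental tumor, with the collagen-binding proteoglycan Dcn at 3326.6 CPM against 32 to 54.9, and in replicate 2 it was 6 of 9. The other two in replicate 3 were Col1a1, which lay inside the parental range at 2739 CPM, and Thy1, which was below it at 6.64 CPM against 62.8 to 113.4. All 9 markers had at least 3 counts in every library. The metastasis had 13183.1 CPM of fibroblast markers with only 7.31 CPM of Igf1, and the part of fibroblasts in the Igf1 values was not tested. The sum of adipocyte markers, higher in all 3 EMT6-PTR tumors, was 54.8 CPM in replicate 1 as in replicate 3. The share of CT010467.1 was high in replicate 2 alone. The sum of macrophage markers was 1506, 1290.4 and 1141.7 CPM in EMT6-PTR replicates 1 to 3 and between 1235.9 and 1489.6 CPM in EMT6-P tumors. The part of these markers was not tested either.

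Igf2 was scarce throughout. Its CPM values were 1.26, 0.139 and 2.16 in EMT6-P and 2, 0.332 and 0.389 in EMT6-PTR tumors, and EMT6-P replicate 2 held 3 counts, which is no more than a count of 0 allows. Igf2 encodes the fetal IGF ligand and is imprinted, with expression from the paternal allele. The log2 fold change of -0.38 (SE 1.03, adjusted p = 0.896 in edgeR) was 0.38 without EMT6-P replicate 3, so no direction could be given. The 3 tumors above 1 CPM were the 3 with the highest skeletal muscle marker sums, namely 677.4 CPM in EMT6-P replicate 1, 389.5 in EMT6-P replicate 3 and 4518.6 in EMT6-PTR replicate 1, while the other 3 had 13.9, 8.31 and 4.12.

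H19, the imprinted noncoding RNA gene next to Igf2, was picked for description after its values were seen. It had 31.4, 1.39 and 41.2 CPM in EMT6-P and 178.6, 3.05 and 0.117 CPM in EMT6-PTR tumors, so the same 3 tumors were high. In the metastasis Igf2 and the muscle markers parted, with 3.42 CPM of Igf2, the highest of all 7 libraries, beside 3.46 CPM summed over the muscle markers and 3.89 CPM of H19. The part of muscle tissue in the Igf2 values was not tested.

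**Figure D2:**
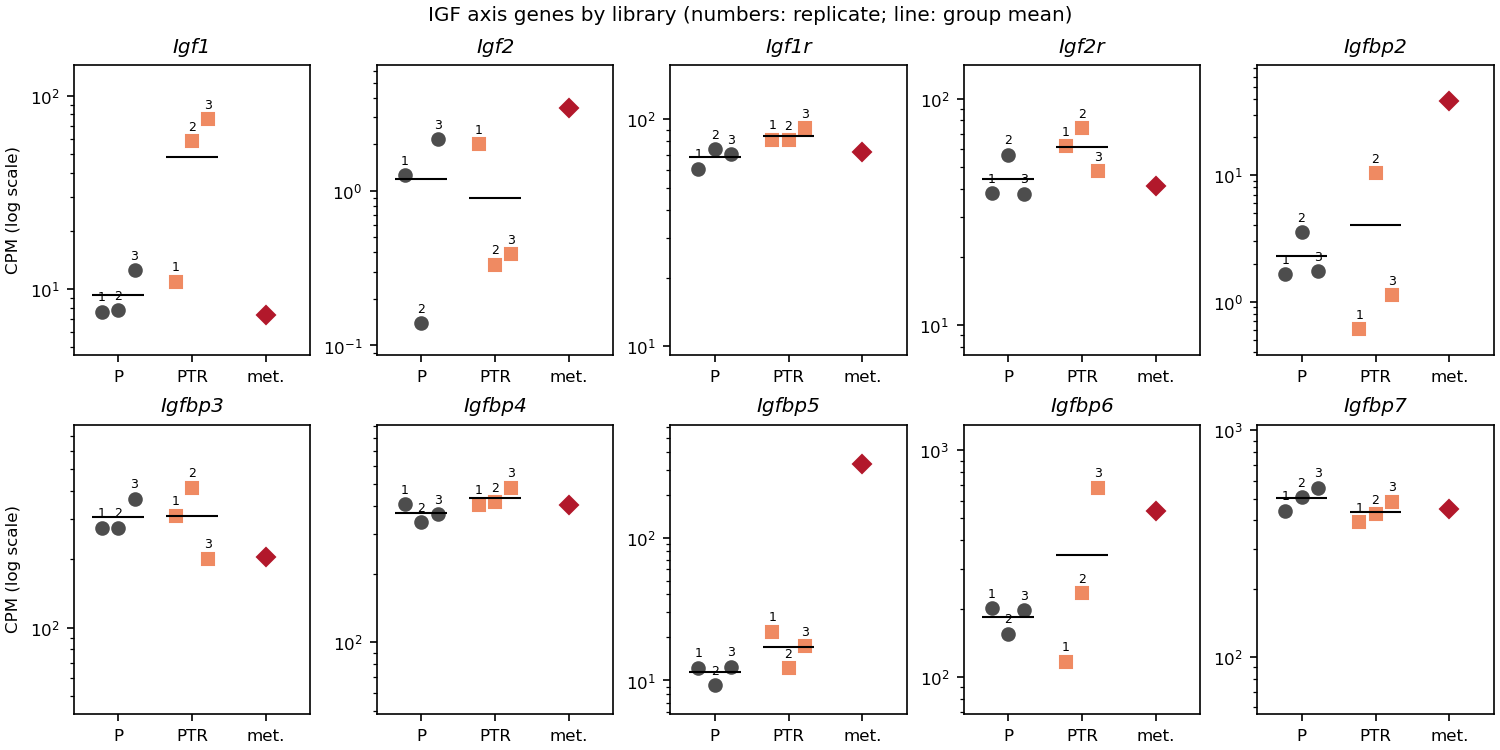
CPM (log axis) of each of the 10 genes in 3 EMT6-P tumors (P), 3 EMT6-PTR tumors (PTR) and the metastasis (met.), with replicate numbers above the points and lines at the group means. Igf1 is high in EMT6-PTR replicates 2 and 3 alone, Igfbp6 in replicate 3 and the metastasis, and Igfbp2 and Igfbp5 are highest in the metastasis.

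Of the receptors, Igf1r had the narrower spread, with 60.6, 74.1 and 70.2 CPM in EMT6-P tumors and 81.4, 80.8 and 91.3 CPM in EMT6-PTR tumors. Every resistant tumor was above every parental one, by a narrow margin, and the log2 fold change was 0.31 (SE 0.13, adjusted p = 0.445 in edgeR). Leaving out any 1 tumor kept it between 0.23 and 0.37. Igf2r had 38.2, 56.5 and 38 CPM in EMT6-P and 61.7, 73.8 and 47.8 CPM in EMT6-PTR tumors. EMT6-PTR replicate 3 lay below the highest parental tumor, and the log2 fold change was 0.47 (SE 0.23, adjusted p = 0.476).

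Of the abundant binding proteins, Igfbp3, the main carrier of IGFs in serum, had 276.4, 276.4 and 371 CPM in EMT6-P and 312.2, 414.5 and 201.7 CPM in EMT6-PTR tumors. The resistant tumors spread to both sides of the parental ones, and the log2 fold change was 0.01 (SE 0.28, adjusted p = 0.993). Igfbp4, which mostly inhibits IGF action and is cut by the protease PAPP-A, had 407.4, 340.2 and 368.5 CPM in EMT6-P and 404.9, 415 and 482.1 CPM in EMT6-PTR tumors. EMT6-PTR replicate 3 was the highest, and the log2 fold change was 0.22 (SE 0.15, adjusted p = 0.56). Igfbp7 had 442.5, 506.6 and 558.6 CPM in EMT6-P and 392.8, 426.7 and 484.8 CPM in EMT6-PTR tumors, with a log2 fold change of -0.21 (SE 0.16, adjusted p = 0.601). Its values stayed within a narrow band in all tumors, although EMT6-PTR replicates 1 and 2 were below every parental tumor.

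Igfbp6, which binds IGF2 in preference to IGF1, differed most among the resistant tumors of the abundant genes. It had 201.4, 155.3 and 196.7 CPM in EMT6-P and 116.8, 233.6 and 684.2 CPM in EMT6-PTR tumors. EMT6-PTR replicate 1 was below all parental tumors and replicate 3 far above them, so that the log2 fold change of 0.90 (SE 0.60, adjusted p = 0.561) was -0.08 without replicate 3. That tumor and the metastasis, with 540.2 CPM of Igfbp6, were also the libraries with the most fibroblast markers, at 21356.6 and 13183.1 CPM, and their part in the Igfbp6 values was not tested. In the metastasis the largest part of that sum was Col3a1 (6579.7 CPM). Col3a1, Col1a2 (3087.7 CPM), Dcn (879.6 CPM) and Pdgfra (228.3 CPM) were above every EMT6-P tumor there. Col1a1 (2199.1 CPM) and Thy1 (6.44 CPM) were below every EMT6-P tumor there, Lum, Pdgfrb and Fap were inside the parental range, and 0 of 9 fibroblast markers were above all 6 tumors.

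The scarce binding proteins were Igfbp5 and Igfbp2. Igfbp5, a matrix-bound protein known from mammary involution, had 12.3, 9.29 and 12.5 CPM in EMT6-P and 22, 12.2 and 17.4 CPM in EMT6-PTR tumors. EMT6-PTR replicate 2 lay within the parental range, and the log2 fold change was 0.60 (SE 0.26, adjusted p = 0.447). Igfbp2 had 1.65, 3.53 and 1.74 CPM in EMT6-P and 0.607, 10.4 and 1.13 CPM in EMT6-PTR tumors. One resistant tumor, replicate 2, was above and the other two were below all parental tumors, and the log2 fold change of 0.80 (SE 1.05, adjusted p = 0.757) was -1.40 without it. That tumor is the library in which CT010467.1 took 13.8% of counts, and the part of this in its values was not tested.

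Tumor by tumor, in EMT6-PTR replicate 2, 7 of the 10 genes were above all EMT6-P tumors and 1 (Igfbp7) was below, beside 33.8% and 38.2% of all tested genes. In replicate 3, 5 were above and 2 (Igfbp2 and Igfbp3) below, beside 39.8% and 42.7% of all genes, and in replicate 1, 3 were above and 3 below, beside 32.6% and 32.5%. Large shares of all genes thus lay outside the parental range in each resistant tumor, and nothing about the axis is read from these counts. Igf1r was the gene above in every one of them.

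**Figure D3:**
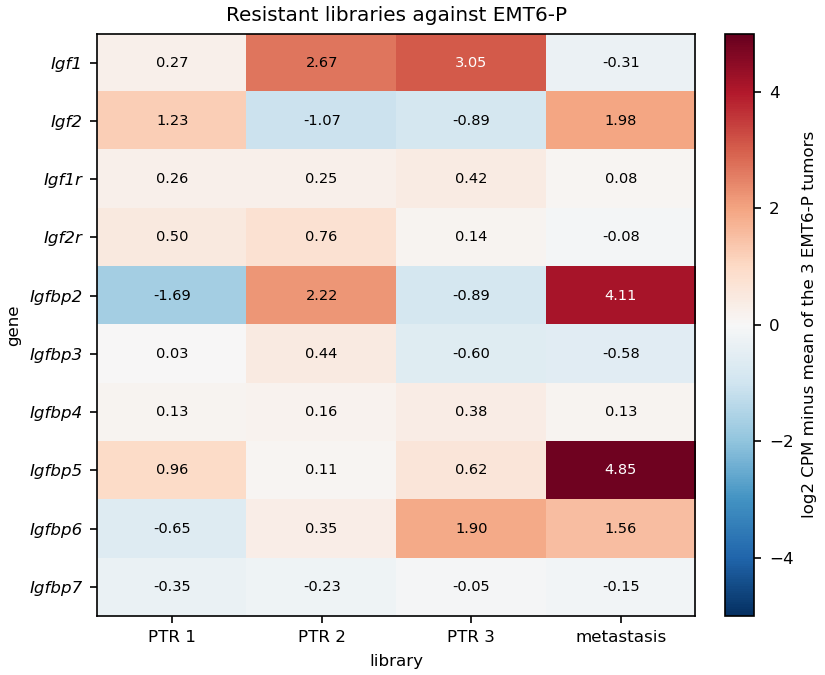
Log2 CPM of each gene in the 3 EMT6-PTR tumors and the metastasis minus the mean of the 3 EMT6-P tumors (color and printed value). Igf1 was 2.67 and 3.05 above the parental mean in EMT6-PTR replicates 2 and 3 but 0.27 in replicate 1, and Igfbp2 was 2.22 above it in replicate 2 with a difference of -1.69 in replicate 1.

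**Figure D4:**
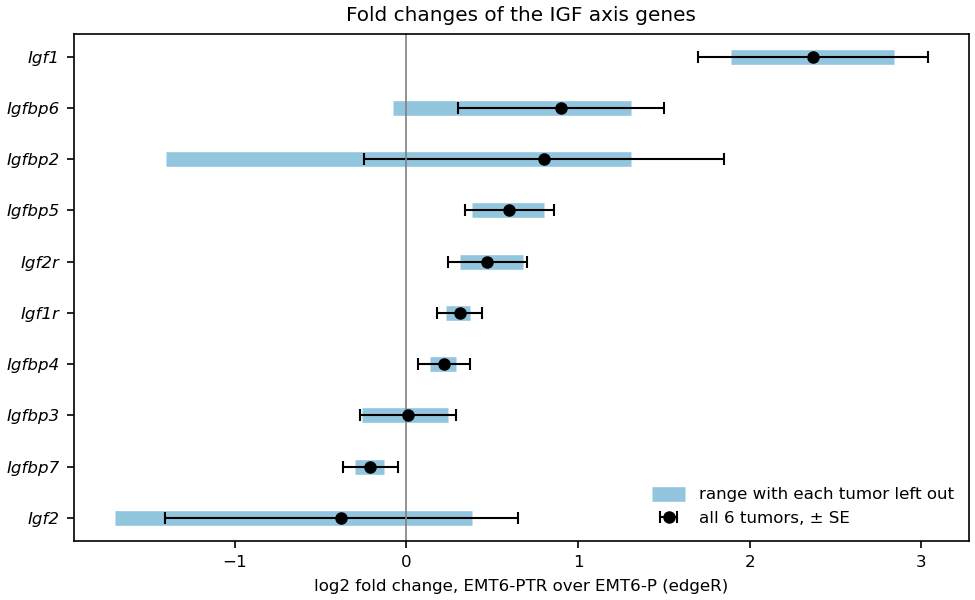
Log2 fold change of EMT6-PTR over EMT6-P tumors from edgeR, with its SE (points and bars, n = 3 per group), and the range obtained with each tumor left out in turn (blue bands). The bands of Igf2, Igfbp2, Igfbp3 and Igfbp6 cross 0, and the band of Igf1 runs from 1.89 to 2.84.

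The third question was how the metastasis stood to the resistant tumors. With 1 metastasis there was no replicate and no test, and its values were set against the 3 EMT6-PTR tumors that also enter the comparison above. On the log2 scale with a prior count of 2, 4 of 10 genes (Igf2, Igfbp2, Igfbp5 and Igfbp6) were at least 2-fold above the EMT6-PTR mean, as were 12.4% of all genes. It was 3 without EMT6-PTR replicate 1 or without replicate 2, when Igfbp6 differed by 0.43 and 0.93. One gene, Igf1, was at least 2-fold below it, as were 8.58% of all genes. The median difference was -0.02 for the 10 genes and -0.02 for all genes.

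Igfbp5 and Igfbp2 had the largest differences of the 10. Igfbp5 reached 326.3 CPM in the metastasis, against at most 22 CPM in any tumor, a log2 difference of 4.28 (19.4-fold) from the EMT6-PTR mean, whose SD was 0.43. Igfbp2 reached 38.9 CPM, against at most 10.4 CPM in any tumor, a log2 difference of 4.23 (18.8-fold). The EMT6-PTR tumors spread far more for Igfbp2, with an SD of 2.07, and with one of them left out its difference ran from 3.45 to 5.41, against 4.06 to 4.48 for Igfbp5. Both differences stood at the 99.1 percentile of all genes.

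The endothelial markers summed to 1042.7 CPM in the metastasis against 154.9 to 241.8 in the tumors, with Pecam1 at 283.1 CPM against 37.6 to 60.5. Emcn, of the same list, went the other way, at 8.46 CPM in the metastasis against 15.6 to 21.9 in the tumors. The lung surfactant gene Sftpc was at 2334.6 CPM there and at most 0.188 CPM in the tumors. The part of lung and vessel tissue in the Igfbp5 and Igfbp2 values was not tested, and tumor cells and the tissue around them cannot be told apart in this single library.

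Igfbp2 and Igfbp5 are neighbors on mouse chromosome 1 in GRCm38. Igfbp2 occupies chr1:72824503-72852474 on the plus strand and Igfbp5 chr1:72857932-72874884 on the minus strand, with 5457 bases between their facing 3′ ends. The sequences before their start sites are shown because these were the 2 genes that stood highest in the metastasis together. They are from RefSeq (GRCm38.p6), each 5′ to 3′ on the strand of its gene, with bases that GENCODE M21 annotates as exon left out. For Igfbp2 the 250 bases at chr1:72824230-72824479 are given, and for Igfbp5 the 231 bases at chr1:72874885-72875115. Capitals mark the GC box GGGCGG, searched on both strands together with the TATA box TATAAA and the STAT5 motif TTCNNNGAA.
Igfbp2: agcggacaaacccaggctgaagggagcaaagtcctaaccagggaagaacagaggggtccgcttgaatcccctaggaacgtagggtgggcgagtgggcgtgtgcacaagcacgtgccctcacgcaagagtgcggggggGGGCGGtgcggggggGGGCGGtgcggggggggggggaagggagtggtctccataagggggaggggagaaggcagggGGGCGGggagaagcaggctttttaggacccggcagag
Igfbp5: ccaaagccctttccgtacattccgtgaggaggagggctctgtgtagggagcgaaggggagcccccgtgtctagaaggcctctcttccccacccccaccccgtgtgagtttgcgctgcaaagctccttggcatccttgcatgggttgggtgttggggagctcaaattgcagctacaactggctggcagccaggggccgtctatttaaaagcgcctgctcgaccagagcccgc
The Igfbp2 stretch held 3 GC boxes and the Igfbp5 stretch none, and neither held TATAAA or TTCNNNGAA. Igfbp2 has another RefSeq window, at chr1:72825137-72825386, which is not printed and held none of these motifs. Among 32851 RefSeq windows of the same 250 bases, 32.7% held GGGCGG, 12.4% TATAAA and 7.02% TTCNNNGAA. Over all 14 windows of the 10 genes, 6 held GGGCGG, 2 (those of Igfbp4 and Igfbp6) held TATAAA and 0 held TTCNNNGAA. These are matches of letters and describe no binding.

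Among the other genes, Igf1 was lower in the metastasis than in all 6 tumors, at 7.31 CPM, a log2 difference of -2.30 from the EMT6-PTR mean, which ran from -3.17 to -1.78 with one EMT6-PTR tumor left out. The Igf2 value of 3.42 CPM was a log2 difference of 2.23 above it, at 86 estimated counts. Igf1r (72 CPM) and Igf2r (41.1 CPM) were below all EMT6-PTR tumors and inside the EMT6-P range, with log2 differences of -0.23 and -0.55. Igfbp6 at 540.2 CPM was 1.03 above the mean of the EMT6-PTR tumors but below replicate 3. Igfbp3, Igfbp4 and Igfbp7 had 203.8, 405 and 449.4 CPM, all within the EMT6-PTR range.

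**Figure D5:**
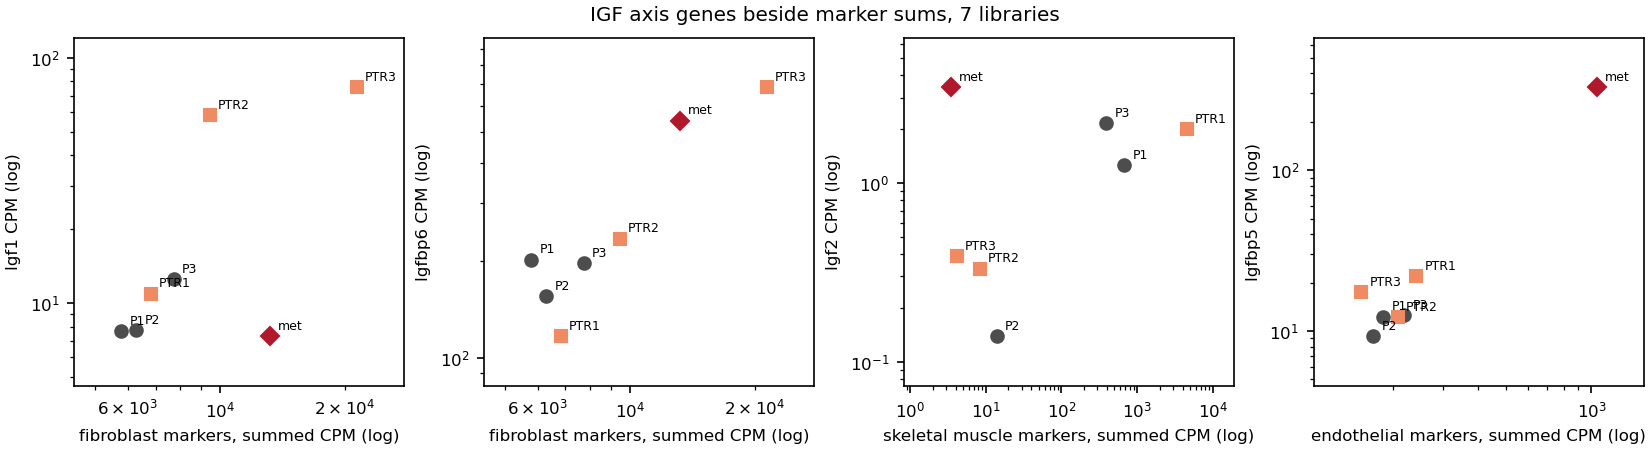
CPM of Igf1, Igfbp6, Igf2 and Igfbp5 (log axes) against the summed CPM of fibroblast, fibroblast, skeletal muscle and endothelial markers in 7 libraries (P, EMT6-P; PTR, EMT6-PTR; met, metastasis). The metastasis joins high fibroblast markers with 7.31 CPM of Igf1, and 1042.7 CPM of endothelial markers with 326.3 CPM of Igfbp5.

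Genes that act around the axis were followed in 6 lists, in which 0 genes were called. Of 7 other ligands, receptors and carriers, only the insulin receptor gene Insr was tested. It had 21.4, 18.8 and 21.1 CPM in EMT6-P and 27.4, 22.7 and 27.8 CPM in EMT6-PTR tumors, above in each resistant tumor, with a log2 fold change of 0.35 (SE 0.15, adjusted p = 0.443 in edgeR). The insulin genes Ins1 and Ins2 were at 0 in all 7 libraries, which allows up to 3 counts in each, and Insrr, Igfbp1, Igfals and Igfbpl1 had at most 14 counts in any library and were not tested.

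Of 9 proteases of the binding proteins and their inhibitors, 8 were tested, 3 with log2 fold changes above 0 and 5 below, with a median of -0.04. Htra1, a serine protease, had 344, 339.6 and 348.3 CPM in EMT6-P and 238.3, 313.5 and 260 CPM in EMT6-PTR tumors. All resistant tumors were below the parental ones, with a log2 fold change of -0.35 (SE 0.15, adjusted p = 0.444 in edgeR). Pappa2, which cuts IGFBP5, and Adam12, a metalloprotease of the same group, had log2 fold changes of -0.60 and -0.44 (SE 0.76 and 0.65). In the metastasis Pappa2 was 2.74 above and Adam12 1.98 below the EMT6-PTR mean on the log2 scale, with values of 2.11 and 4.85 CPM. Pappa2 was near the floor in the EMT6-PTR tumors, with 0.347, 0.0554 and 0.466 CPM. Replicate 2 was below the 0.17 CPM that a count of 0 allows in that library. For Adam12 the EMT6-PTR tumors had 41.5, 32.1 and 5.44 CPM, so that replicate 3 was nearly as low as the metastasis. Adam28 was not tested.

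All 26 receptor adaptors and members of the PI3K-AKT pathway were tested. For 20 the log2 fold change was above 0 and for 6 below, with a median of 0.23, and 4 had an unadjusted p under 0.05. Over all genes tested, 52.3% had log2 fold changes above 0 and 11.4% an unadjusted p under 0.05. The smallest p-values were those of Rictor, a subunit of mTOR complex 2 (log2 fold change 0.54, SE 0.19), Foxo4, a transcription factor restrained by AKT (0.62, SE 0.22), and Pik3r1, a regulatory subunit of phosphoinositide 3-kinase (2.20, SE 0.81), each with an adjusted p of 0.427 in edgeR. Pik3r1 had 30.6, 31.6 and 35.8 CPM in EMT6-P and 42, 56.6 and 350.2 CPM in EMT6-PTR tumors, and 116.8 CPM in the metastasis. All 3 resistant tumors were above the parental range, but replicate 3 was far above the other two. In the metastasis Irs1, which couples the receptors to phosphoinositide 3-kinase, was the 1 gene of this list at least 2-fold lower, with 17 CPM against 36.9 to 82 in EMT6-PTR tumors.

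Of 6 genes of growth hormone receptor and STAT5 signaling, all were tested, and 5 had log2 fold changes above 0, with a median of 0.46 that was 0.13 without EMT6-PTR replicate 3. Ghr, the growth hormone receptor gene, had 35.7, 26.1 and 27.9 CPM in EMT6-P and 33.7, 68.2 and 337 CPM in EMT6-PTR tumors (log2 fold change 2.29, SE 0.83, adjusted p = 0.427 in edgeR). As with Igf1, replicates 2 and 3 were high and replicate 1 lay in the parental range, but the metastasis had 155.8 CPM of Ghr. Stat5a had a log2 fold change of 0.38 (SE 0.23). Cish, a feedback inhibitor of STAT5 signaling, had 0.54 (SE 0.36) and reached 93 CPM in the metastasis, against at most 5.76 CPM in any tumor. Socs2, another such inhibitor named after its values were seen, was at 58.5 CPM there, against at most 27.8.

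Of 11 imprinted growth genes and IGF2 mRNA-binding proteins, 7 were tested, with 4 above 0 and 3 below, and a median of 0.51. The sign of this median turned to -0.52 without EMT6-PTR replicate 1, -0.42 with limma-voom, -0.20 with at least 10 counts in every tumor and -0.17 with the replicate number as a block, so no direction could be given. The imprinted zinc finger gene Peg3 had a log2 fold change of 1.64 (SE 0.94, adjusted p = 0.515 in edgeR), with 40.9 CPM in EMT6-PTR replicate 3 and between 3.38 and 6.36 CPM in the other tumors. Cdkn1c, a cell cycle inhibitor, had 0.58 (SE 0.44) and was at 13.9 CPM in the metastasis against at most 1.32 CPM in the tumors. Igf2bp1, whose product binds Igf2 mRNA, had -0.46 (SE 0.49). Igf2os, Dlk1, Plagl1 and Igf2bp3 were not tested.

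The 4 genes of mannose 6-phosphate sorting, the route that the Igf2r product serves, had a median log2 fold change of 0. Gnptab, which makes the mannose 6-phosphate tag, had 0.30 (SE 0.15), Nagpa, which uncovers it, -0.21 (SE 0.22), and M6pr, the other mannose 6-phosphate receptor gene, -0.01 (SE 0.19).

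The pattern of each gene over the 7 libraries was last set beside that of all tested genes, by Pearson's r of log2 CPM. The points share libraries and scaling, each nearest gene was the best of 15645, and r is a description only. For Igf1 the nearest were Drosha (r = 0.993), Man1b1 (0.988) and Nek4 (0.985), and the CPM of Drosha moved only between 49.5 and 61.1. For Igf2 they were D130017N08Rik (0.979), Slc38a4 (0.935) and Ippk (0.934). Igfbp5 was nearest to Shank3 (0.998), which ran from 3.95 to 50 CPM, and Igfbp6 to Fam241a (0.997), which ran from 7.38 to 34 CPM. For the remaining genes the nearest were Gipc3 for Igf1r (0.985), Rbpj-ps3 for Igf2r (0.973), 2510039O18Rik for Igfbp2 (0.969), Prr9 for Igfbp3 (0.987), Trim6 for Igfbp4 (0.98) and Kctd9 for Igfbp7 (0.97). Among the 10 genes themselves, r was highest for Igf1 and Igf1r (0.748) and lowest for Igfbp3 and Igfbp6 (-0.696), and for the neighbors Igfbp2 and Igfbp5 it was 0.667.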

How the data were processed

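RNA of 3 EMT6-P tumors, 3 EMT6-PTR tumors and 1 EMT6-PTR metastasis was analyzed, grouped by the sample labels. The authors prepared stranded polyadenylated libraries, checked reads with FastQC 0.11.5, aligned them with STAR 2.6.0a to GRCm38 with GENCODE M16, and deposited estimated counts per gene from RSEM 1.3.1, before filtering or scaling. RSEM divides reads shared by similar genes by estimation, and its strand setting is not given in the sources used here. Between 13.5% and 15.6% of values per library were fractional.

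Counts were rounded and filtered with filterByExpr. EMT6-PTR was compared with EMT6-P in edgeR 4.0.16 under R 4.3.3 (upper-quartile scaling, glmQLFit, glmQLFTest), and Benjamini-Hochberg adjusted p-values were read at 0.05. The SE of a log2 fold change is its size over the square root of F. Log2 CPM had a prior count of 2. The metastasis entered no test. GENCODE M21 (GRCm38) gave a symbol for 53274 of 53465 identifiers, and its merged exons gave lengths. RefSeq gave start-site windows for 10 of 10 genes.

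The 10 genes, the 6 pathway lists and the 10 marker lists were chosen with earlier results of these data known. Named genes were the 10, up to 3 of each pathway list with the smallest unadjusted p, and the nearest genes by correlation (3 each for Igf1 and Igf2, 1 for the others). Others are marked where named, or are markers.

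Alternatives were TMM scaling, library totals, DESeq2 1.42.0, limma-voom (limma 3.58.1), no filter, at least 10 counts in every tumor, the metastasis as an added group, the replicate number as a block, each tumor left out, a prior count of 0.5, and other lengths or medians for the order of levels. Counting limits cover counting error only. Plots were drawn with matplotlib 3.10.9 in Python 3.11.15.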

Additional observations from a re-analysis of the deposited data

How the results depend on the processing

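No gene was called by edgeR or limma-voom under any alternative, while DESeq2 called 281 of all genes and 1 of the 10, Igf1. The median log2 fold change of the 10, 0.39, was 0.26 with limma-voom, 0.48 with at least 10 counts in every tumor, which left 9 of them, and 0.24 to 0.42 with each tumor left out in turn. With a tumor left out, 1 to 3 of the 10 were at least 2-fold higher and 0 to 1 at least 2-fold lower. With all 6 tumors, 6.27% and 1.29% of all genes were. Without EMT6-PTR replicate 1, Igfbp2 and Igfbp6 joined Igf1 and Igf2 was the lower gene. Without EMT6-PTR replicate 2, Igfbp6 (1.12) joined Igf1 and Igfbp2 was the lower gene. Igfbp2 joined Igf1 at 1.24 without EMT6-PTR replicate 3 and at 1.24 without EMT6-P replicate 2. Directions turned for 4 genes. Igfbp3, at 0.01, was -0.04 with library totals and -0.03 with limma-voom, and ran from -0.26 to 0.24 with a tumor left out. Igfbp2 was -0.28 with limma-voom and ran from -1.4 to 1.31, Igf2 ran from -1.7 to 0.38, and Igfbp6 from -0.08 to 1.31. In the metastasis, 3 to 4 of the 10 were at least 2-fold higher with an EMT6-PTR tumor left out. The causes were not tested beyond the tumor left out.

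With the replicate number as a block, 0 genes were called, the median was 0.27, and Igfbp2 (-0.12) and Igfbp3 (-0.04) turned. The numbers were not taken as pairs in the main fit. Deviations of tumors with the same number correlated at 0.259, 0.253 and 0.0384, and those with different numbers at -0.286 to 0.0979. For replicates 1 and 2 the tumor of the same number was the best match, while EMT6-PTR replicate 3 correlated best with EMT6-P replicate 2 (0.0771). These values do not settle whether the numbers are pairs.

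Limits are the 3 tumors per group, the single metastasis, and the wider spread of EMT6-PTR tumors (common dispersion 0.246 against 0.0266). Igf2, with 3 to 46 counts per tumor, is the gene that depth limits most.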
